A study of Mus musculus with 6 samples.

Results

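The genes described here encode the receptors of vascular endothelial growth factor (VEGF) and of the angiopoietins, together with their ligands. There are 10 of them among 22180 genes with a named row on the array. The receptor side has 6 genes, Kdr, Flt1, Flt4, Nrp1, Tek and Tie1, and the ligand side has 4, Vegfa, Vegfb, Vegfc and Angpt1. They were chosen by name, as rows that the platform annotation pairs with 1 symbol only, and for a gene with several rows the row with the highest mean over the 6 arrays was taken. RNA came from cardiomyocytes cultured from hearts of 1-day-old C57BL/6 mice, a preparation enriched by letting faster-attaching cells settle for a time and moving the rest to new plates. All cultures were kept for 12 h at 2% oxygen, with 5% CO2 and 93% N2. In 3 of them FGF21, a metabolic hormone of the FGF family, was present at 1 µg/ml, and in 3 controls it was absent. The series asked which genes FGF21 regulates in hypoxic cardiomyocytes, and it holds no culture in normal oxygen. The labels call the samples biological replicates without naming litters, pools of hearts or cultures, so part of their scatter may be technical. The p-values of limma rest on this scatter, drawn for each gene toward a value shared by all genes.

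VEGF-A binds Kdr (VEGF receptor 2), the receptor that carries most of the growth signal in blood vessel endothelium, and Flt1 (VEGF receptor 1), which binds more tightly and largely acts as a trap. Vegfb binds Flt1, Vegfc binds Flt4 (VEGF receptor 3) and Kdr, and Nrp1 (neuropilin 1) is a co-receptor shared with semaphorins. Tek, also called TIE2, is the receptor of the angiopoietins and is made by endothelial cells, while Tie1 has no tight ligand and modulates Tek. In the heart, Vegfa is made by muscle cells and is a well-known target of the hypoxia-inducible factors (HIF), and Angpt1 comes from muscle and supporting cells. In such a culture Kdr, Flt1, Tek and Tie1 would be read mainly from endothelial cells, Nrp1 also from other cells, and the ligands mostly from the rest. The RNA here was bulk RNA, so the source of each transcript was not tested.

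Promoter sequences are shown for the 3 receptor genes whose groups of arrays did not overlap (Kdr, Flt4 and Nrp1) and for both TIE receptors, since all are genes of endothelial cells with a known class of regulator. Transcription factors of the ETS family, among them Erg, act in endothelial cells and read a core of the letters GGAA. Only the longer string GGAAG was searched, on both strands, so cores followed by another letter were not counted. RefSeq start sites on GRCm38.p6 were matched for 9 of the 10 genes by symbol, Angpt1 being the exception, and the window is the 250 bases before the start. Capitals mark GGAAG or its reverse complement CTTCC, and each sequence runs 5′ to 3′ on the gene's strand.
Kdr, chr5:75978456-75978705, minus strand: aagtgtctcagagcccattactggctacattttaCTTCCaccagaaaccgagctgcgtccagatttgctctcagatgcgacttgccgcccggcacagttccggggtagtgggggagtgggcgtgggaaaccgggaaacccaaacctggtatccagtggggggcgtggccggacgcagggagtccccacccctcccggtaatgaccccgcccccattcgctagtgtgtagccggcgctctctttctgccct
Flt4, chr11:49609429-49609678, plus strand: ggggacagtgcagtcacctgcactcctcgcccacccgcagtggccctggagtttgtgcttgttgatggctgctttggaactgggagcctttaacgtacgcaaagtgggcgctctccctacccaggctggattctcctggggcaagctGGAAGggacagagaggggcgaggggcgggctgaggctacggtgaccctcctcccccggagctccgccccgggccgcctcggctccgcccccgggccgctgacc
Nrp1, chr8:128358823-128359072, plus strand: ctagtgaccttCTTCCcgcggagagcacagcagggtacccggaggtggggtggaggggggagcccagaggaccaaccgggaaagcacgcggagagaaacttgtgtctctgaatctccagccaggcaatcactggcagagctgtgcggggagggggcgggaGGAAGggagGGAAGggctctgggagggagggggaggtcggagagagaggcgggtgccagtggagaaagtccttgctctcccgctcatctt
Tek, chr4:94739039-94739288, plus strand: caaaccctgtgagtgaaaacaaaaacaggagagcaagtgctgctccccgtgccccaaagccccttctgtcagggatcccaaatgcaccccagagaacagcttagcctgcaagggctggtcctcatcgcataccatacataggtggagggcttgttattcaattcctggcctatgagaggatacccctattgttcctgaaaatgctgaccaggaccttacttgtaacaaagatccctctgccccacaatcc
Tie1, chr4:118489850-118490099, minus strand: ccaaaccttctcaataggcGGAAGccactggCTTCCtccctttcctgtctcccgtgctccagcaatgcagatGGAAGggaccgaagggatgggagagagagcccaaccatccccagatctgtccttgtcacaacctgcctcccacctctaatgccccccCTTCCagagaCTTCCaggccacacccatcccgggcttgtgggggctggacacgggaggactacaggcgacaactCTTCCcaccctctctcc
The string GGAAG occurs 1 time each before Kdr and Flt4, 3 times before Nrp1, 6 times before Tie1 and 0 times before Tek. Every printed window, that of Tek included, also holds GGAA or its reverse complement TTCC outside the capitals. The counts therefore do not rank the windows by ETS cores. Flt1, not printed, has 3 matches. Of 32851 windows of the same length in the reference, 64.1% hold at least 1 match to GGAAG and 3.39% hold 4 or more. A single match is thus common, and only the Tie1 window is dense in this string. The HIF core ACGTG, also searched on both strands and sharing no letters with a GGAAG match in these windows, is in 16.6% of all windows. Among the members it was found only in the Vegfa windows, 1 time, in the one at chr17:46025164-46025413. These matches describe letters, not binding.

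Over the whole array, the 6 columns of log2 values had medians from 5.76 to 5.83, with the 3 FGF21 arrays lower than the 3 controls, and arrays correlated at 0.993 to 0.997 over the named genes. With limma, 0 of 22180 genes had an adjusted p under 0.05 (Benjamini-Hochberg over all genes), and 2594 (11.7%) had an unadjusted p under 0.05. An ordinary equal-variance statistic with the same adjustment also called 0. Of the 2594 genes, 43.7% were lower with FGF21. With each array centred on its median, 2909 genes had an unadjusted p under 0.05, of which 20.1% were lower. All 14 cardiomyocyte markers examined lay above the median gene in every array, and so did 14 of 19 endothelial and 10 of 10 fibroblast markers. In bulk RNA, fewer cells of a type and less RNA per cell cannot be told apart.

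The 4 VEGF receptor genes had lower means with FGF21, while the TIE receptors and the ligands differed by less than the spread of the arrays. None of the 10 genes passed limma adjusted over all genes. In all, 7 of the 10 had a lower mean with FGF21, as did 52.2% of all genes. Unadjusted p was under 0.05 for 2 of 10, Kdr and Nrp1, both lower, where 11.7% of all genes reach that level and 5.11% do so in the lower direction. The 2 groups of arrays did not overlap for 3 of the 6 receptors and for 0 of the 4 ligands, against 17.1% of all genes (8.14% lower with FGF21). The count of 2 was 1, Kdr alone, without FGF21 replicate 2, FGF21 replicate 3 or control replicate 1, and 3, with Flt1, without control replicate 3.

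Kdr had the widest difference among the members. Its log2 value was 6.85, 7.23 and 7.15 with FGF21 and 8.10, 7.60 and 7.36 without, and the highest FGF21 array lay 0.13 below the lowest control. The difference was -0.61 ± 0.17 (SE), a 1.53-fold lower level (ratio 0.655, 95% interval 0.505 to 0.848), with an unadjusted p of 0.00458 and a limma adjusted p of 0.241. With the ordinary equal-variance statistic, which uses the spread of Kdr alone, the unadjusted p was 0.0671. The controls were spread out, with an SD of 0.375 against 0.197 with FGF21, and control replicate 1 was the highest array of all. Without it the difference was -0.41.

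Nrp1, the co-receptor, showed the same order of groups on a smaller scale. Values were 9.66, 9.58 and 9.56 with FGF21 and 9.98, 9.79 and 9.71 in controls. The lowest control was 0.04 above the highest FGF21 array, so the groups barely separate. The difference was -0.22 ± 0.08 (SE), or 1.17-fold, with an unadjusted p of 0.0201 and a limma adjusted p of 0.343. It was -0.14 without control replicate 1. The ordinary equal-variance statistic gave Nrp1 an unadjusted p of 0.0635.

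Flt4 and Flt1, the other VEGF receptors, were lower by less. Flt4, best known from lymphatic vessels, read 7.30, 7.27 and 7.18 with FGF21 and 7.47, 7.37 and 7.33 without, a difference of -0.14 ± 0.07 (SE) with a gap of 0.03 between the groups. Flt1 read 7.95, 8.19 and 8.17 with FGF21 against 8.49, 8.25 and 8.16. Its groups overlap, since control replicate 3 lies below FGF21 replicates 2 and 3, and its difference was -0.20 ± 0.10 (SE). Limma gave adjusted p of 0.463 for Flt4 and 0.473 for Flt1. Control replicate 1 was the highest array for each of the 4 VEGF receptor genes, and without it Flt1 was at -0.10 and Flt4 at -0.10. Its high reading was not limited to endothelial genes. For the cardiomyocyte marker mean it was also the highest array, at 11.16 against 11.03 and 11.01 in the other controls. For the fibroblast marker mean it was not, at 10.28 against 10.35 in control replicate 2.

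**Figure D1:**
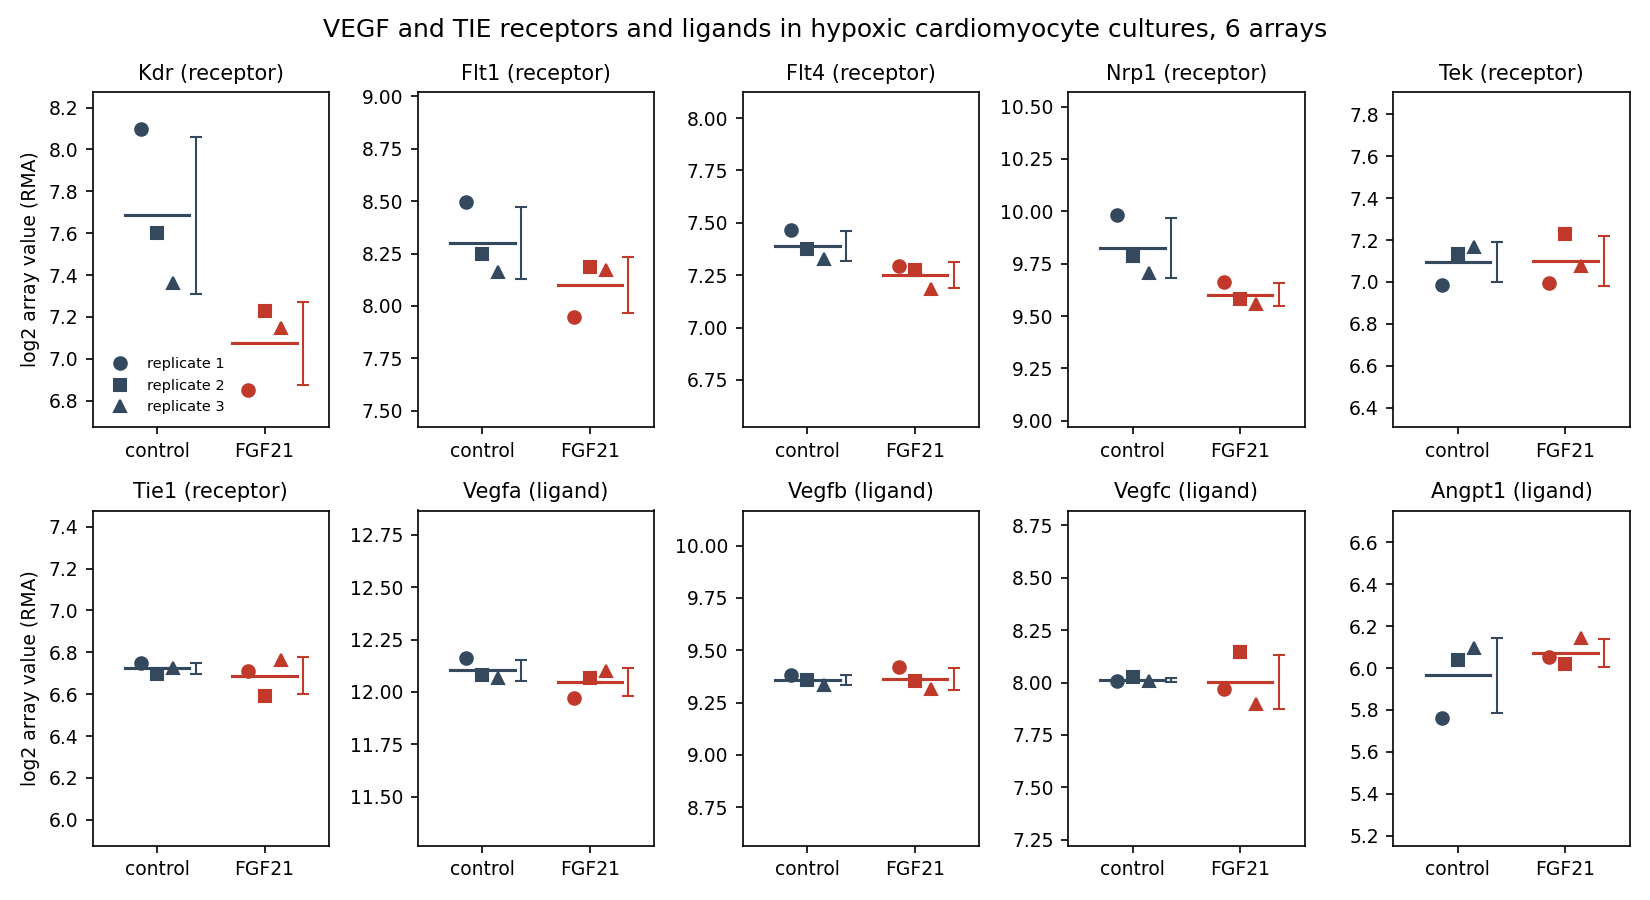
Log2 array value (RMA) of each gene on the vertical axis, which spans 1.6 log2 units in every panel, for 3 control and 3 FGF21 arrays; symbols mark replicate numbers, horizontal lines the group means and bars the SD. Kdr, Flt4 and Nrp1 have all FGF21 arrays below all controls, and the 4 ligands and both TIE receptors have overlapping groups.

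Tek and Tie1, the TIE receptors, showed no measurable difference. Tek, the angiopoietin receptor, was at 6.99, 7.23 and 7.08 with FGF21 and at 6.99, 7.13 and 7.17 without. The arrays are fully interleaved, and the difference was 0.00 ± 0.08 (SE, 95% interval -0.18 to 0.18). Tie1 was at 6.71, 6.59 and 6.76 against 6.75, 6.70 and 6.73, a difference of -0.04 ± 0.07 (SE, 95% interval -0.19 to 0.11). Limma's adjusted p was 0.990 for Tek and 0.871 for Tie1. Both intervals include a difference as large as that of Flt4, but not one as large as those of Nrp1 or Kdr.

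The ligands were close to level as well. Vegfa read 11.97, 12.06 and 12.10 with FGF21 and 12.16, 12.08 and 12.07 in controls, a difference of -0.06 ± 0.07 (SE, 95% interval -0.20 to 0.09). FGF21 replicate 1 was its lowest array and control replicate 1 its highest, as was the case for Kdr and Flt1. Vegfb, the Flt1 ligand, ran from 9.32 to 9.42 with FGF21 and from 9.33 to 9.38 without, with a difference of 0.01 ± 0.06 (SE). Vegfc, which binds Flt4 and Kdr, ran from 7.90 to 8.15 and from 8.01 to 8.03, with a difference of -0.01 ± 0.07 (SE). The FGF21 arrays surround the controls in both genes.

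Angpt1, the activating ligand of Tek, was at 6.05, 6.02 and 6.14 with FGF21 and at 5.76, 6.04 and 6.10 without. Its difference was 0.11 ± 0.09 (SE, 95% interval -0.10 to 0.31), and 1 low array, control replicate 1, sets it: without that array it was 0.00. A dimmer row of Angpt1, at 4.53 with FGF21 and 4.61 without on average, differed by -0.08, so the rows have opposite signs. Angpt1 was also the only member that lay below the median gene, and it did so in every array. Adjusted p of limma for the 4 ligands lay between 0.680 and 0.982.

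**Figure D2:**
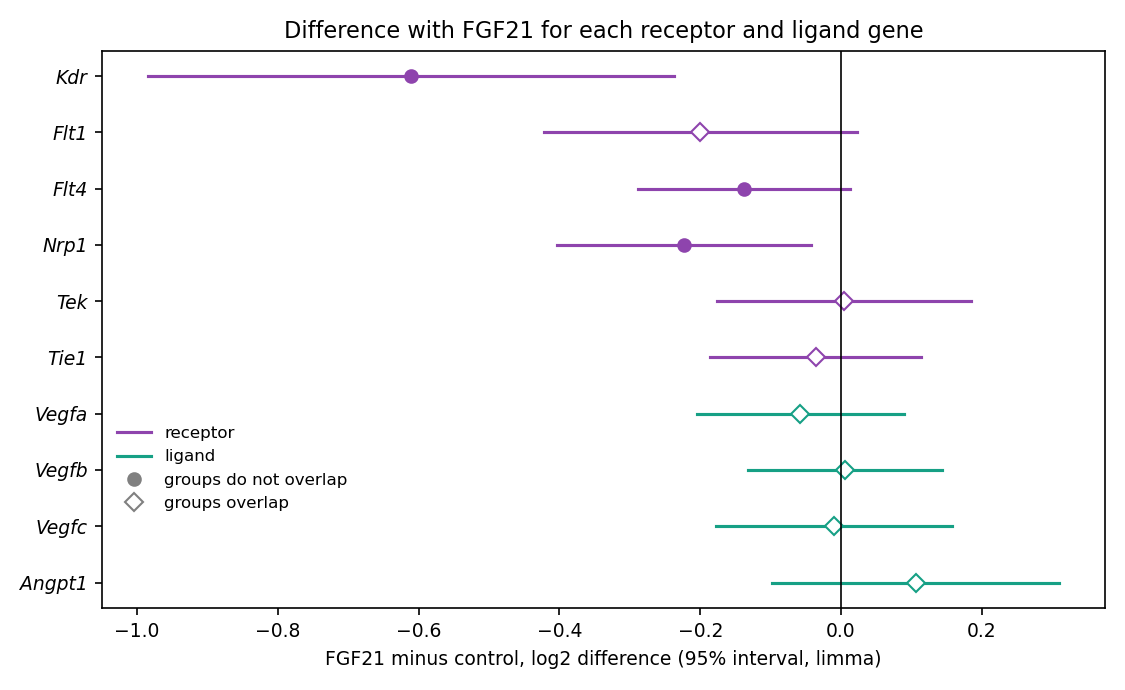
Log2 difference, FGF21 minus control, with its 95% interval from limma for the 6 receptor and 4 ligand genes; filled circles mark genes whose groups of 3 arrays do not overlap. Kdr is at -0.61 and Nrp1 at -0.22 with intervals below 0, and the other 8 intervals include 0.

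Receptor and ligand were then set against each other within each array, for 7 pairs known to bind. This asks whether the receptor side and the ligand side differ unequally, and a scaling shared by an array drops out. Kdr minus Vegfa was -5.12, -4.84 and -4.96 with FGF21 and -4.06, -4.48 and -4.71 without, and the groups did not overlap. The between-group difference was -0.55, with an exact two-sided permutation p of 0.1, the smallest that 3 against 3 arrays allow. Kdr minus Vegfc differed by -0.60, again with no overlap (exact permutation p of 0.1), or by -0.39 without control replicate 1. The 5 other pairs overlapped. Their differences were -0.14 for Flt1 and Vegfa, -0.17 for Nrp1 and Vegfa, -0.21 for Flt1 and Vegfb, -0.13 for Flt4 and Vegfc and -0.10 for Tek and Angpt1. Without control replicate 1, all 5 were smaller, at -0.07, -0.12, -0.12, -0.09 and -0.05 for Flt1 and Vegfa, Nrp1 and Vegfa, Flt1 and Vegfb, Flt4 and Vegfc, and Tek and Angpt1. Flt1 and Vegfb stood at -0.10 without FGF21 replicate 1, Flt4 and Vegfc at -0.07 without FGF21 replicate 2, and Tek and Angpt1 at -0.06, -0.19 and -0.05 when FGF21 replicates 1, 2 and 3 were left out in turn. Adjusted over the 7 pairs, exact permutation p ran from 0.28 to 0.3. In all 7 pairs the receptor was lower relative to its ligand on average, but the pairs share genes, so the signs are not independent. For Tek and Angpt1 the difference was only -0.0069 with the mean of a gene's rows, so it depends on the Angpt1 row used.

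Endothelial markers that are not members moved with the VEGF receptors. Of 19 measured markers, 16 were lower with FGF21 and 3 higher, with a median of -0.27 against -0.01 over all genes. Unadjusted p was under 0.05 for 11, all of them lower, and groups did not overlap for 11, also lower. Over all genes, 5.11% were lower at that level and 8.14% were lower without overlap. None of the 19 markers passed limma adjusted over all genes, the smallest adjusted p being 0.177. Examples are Cdh5, the endothelial cadherin, at -0.44 ± 0.13 (SE), Pecam1, a junction adhesion molecule, at -0.32 ± 0.10, Cd34 at -0.32 ± 0.07, Icam2 at -0.38 ± 0.10 and Gpihbp1, which holds lipoprotein lipase on capillaries, at -0.45 ± 0.10. Averaged over the list, the level was 7.002, 7.17 and 7.12 with FGF21 against 7.39, 7.31 and 7.23, without overlap. Pecam1 was at -0.21 without FGF21 replicate 1. The count of 11 was 9 without FGF21 replicate 1, control replicate 1 or control replicate 2, and 4 with the ordinary statistic.

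Against this marker mean, the receptors sorted differently. Kdr minus the marker mean was -0.15, 0.06 and 0.03 with FGF21 and 0.70, 0.29 and 0.13 in controls, a difference of -0.39 in arrays that did not overlap. On average Kdr was lower by more than the marker mean, but this is not established. The exact permutation p was 0.1, the smallest that 3 against 3 arrays allow, and 0.3 when adjusted over the 6 receptors. Single markers ranged from -0.45 to 0.07, and only 14 of the 19 lay above the median gene in every array. Without control replicate 1, the difference of Kdr from the marker mean was -0.23. Tek minus the marker mean was -0.01, 0.06 and -0.04 with FGF21 and -0.41, -0.18 and -0.07 in controls, a difference of 0.22 without overlap (exact permutation p of 0.1, adjusted 0.3), or 0.13 without control replicate 1. Tie1 was higher against the markers by 0.18, but with overlap (exact permutation p of 0.2, adjusted 0.4). For Flt1, Nrp1 and Flt4 the differences were 0.02, -0.01 and 0.08, within the spread of the arrays, and that of Flt4 was 0.01 without FGF21 replicate 1. Set directly against the TIE receptors, in 6 pairs chosen after the values were seen and given with no test, Kdr minus Tek differed by -0.62 without overlap and Kdr minus Tie1 by -0.58 with a gap of only 0.00183. Without control replicate 1 these were -0.36 and -0.38. The 4 pairs of Nrp1 or Flt4 with Tek or Tie1 all overlapped, with differences from -0.23 to -0.10.

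**Figure D3:**
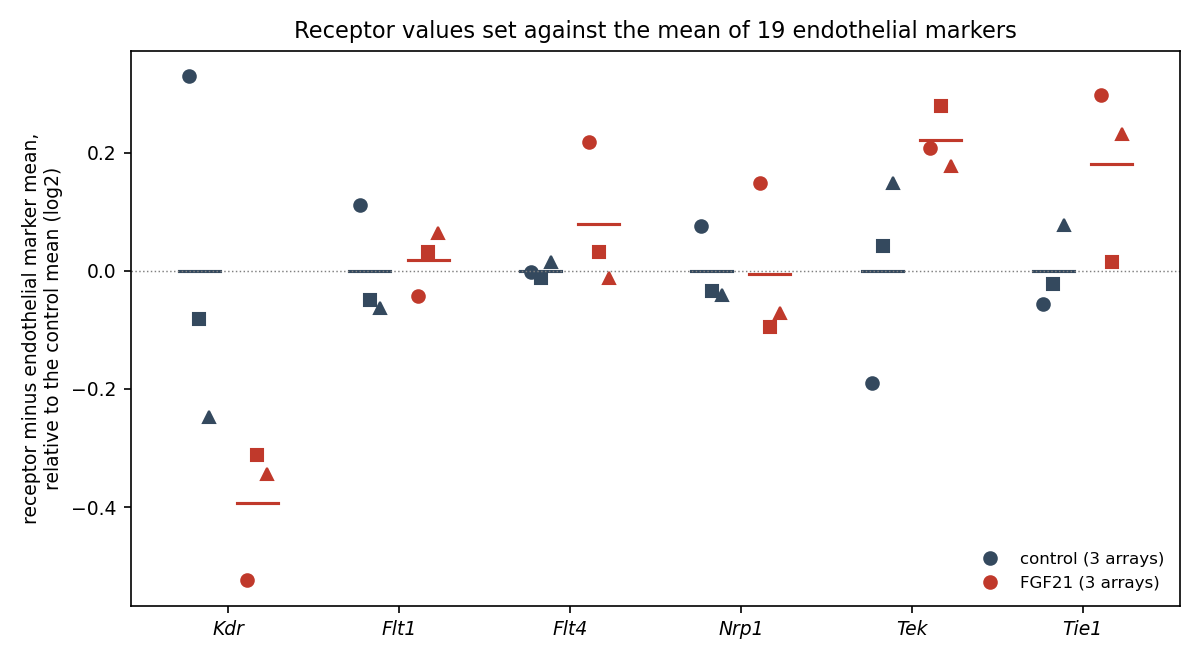
Each receptor's log2 value minus the mean of 19 endothelial markers in the same array, shown relative to the control mean; circles, squares and triangles are replicates 1, 2 and 3, and lines are group means. Kdr lies below the controls and Tek above them in all 3 FGF21 arrays, and the other 4 receptors have overlapping groups.

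Other cell types were read from their own lists. Pericyte markers were lower in 6 of 8 genes, with a median of -0.21. Of these, 4 had an unadjusted p under 0.05 and no overlap: Kcnj8 and Abcc9, subunits of an ATP-sensitive potassium channel, at -0.65 ± 0.09 (SE) and -0.45 ± 0.13, Rgs5 at -0.49 ± 0.15 and Mcam, which endothelial cells also make, at -0.38 ± 0.13. Among all genes, 5.11% were lower at that level and 8.14% were lower without overlap. Which cells of the culture made Kcnj8 and Abcc9 was not tested. Abcc9 read 10.50, 9.99 and 9.97 in controls, where Rgs5 read 8.86, 8.86 and 8.81. Limma gave Kcnj8 an adjusted p of 0.0685 over all genes. It passed 0.05 in 3 alternatives, at 0.0459 with quantile normalization applied again, 0.0403 under a robust prior with a trend and 0.0208 with dim genes left out. The count of 4 was 1 with the ordinary statistic. Without control replicate 1, Abcc9 was at -0.28 and Mcam at -0.22, and without FGF21 replicate 1 Rgs5 was at -0.28. The other 4, among them Pdgfrb, Cspg4 and Notch3, lay between -0.03 and 0.06. The pericyte mean was 8.29 to 8.47 with FGF21 and 8.51 to 8.75 without, and its part in the receptor differences was not tested. The fibroblast median was 0.00 over 10 genes, smooth muscle 0.01 over 6, leukocyte -0.00 over 9 and cardiomyocyte -0.02 over 14. The groups overlapped in each of these list means. Single genes in them with an unadjusted limma p under 0.05 and no overlap went both ways. They were Csrp3 (cardiomyocyte) at 0.30 ± 0.06 (SE), Myh11 (smooth muscle) at 0.16 ± 0.06, and the leukocyte genes Ptprc at 0.20 ± 0.08 and Cd68 at -0.20 ± 0.06. Epicardial markers had a median of 0.09 over 7 genes, and 2 of them had an unadjusted p under 0.05, both higher and without overlap: Krt19, a keratin, at 0.31 ± 0.08 (SE) and Msln, mesothelin, at 0.22 ± 0.07. In either direction, 11.7% of all genes reach that level and 17.1% have no overlap. Of 5 lymphatic markers, Lyve1 was at -0.31 and Mmrn1 at -0.22, Pdpn, which other heart cells share, was at 0.18, and the median was -0.00. Mmrn1 lay below the median gene in every array. Of 5 red cell genes written, 1 was measured, at -0.21.

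Genes known to respond to VEGF in vessels, and the Notch genes that work with it, held some of the lower values. Of 16 VEGF response genes 9 were lower, with a median of -0.01. While 5.11% of all genes were lower at an unadjusted p under 0.05, 3 of these 16 were. These were Esm1, a proteoglycan of sprouting tip cells, Cxcr4, a chemokine receptor of tip cells, and Dll4, the Notch ligand of tip cells. Esm1 was at 6.91, 7.26 and 7.34 with FGF21 and 7.75, 7.74 and 7.53 without, a difference of -0.50 ± 0.11 (SE). Cxcr4 differed by -0.44 ± 0.11 and Dll4 by -0.37 ± 0.11, also without overlap. Dll4 lay below the median gene in every array, and its groups were 0.04 apart. Rcan1, which the calcium arm of VEGF signalling induces, stood at 0.14 ± 0.07 (0.09 without control replicate 2), so the list did not go 1 way. Of 10 Notch genes 7 were lower, with a median of -0.09. Hey1, a Notch target, was at -0.33 ± 0.08 without overlap, and Jag2, a ligand, at -0.28 ± 0.10 with overlap. Limma's adjusted p was at least 0.178 for all of these genes.

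Other ligands and partners were mixed. Angpt2, the angiopoietin that endothelial cells make themselves and that often opposes Angpt1, read 7.77, 7.91 and 7.69 with FGF21 and 8.02, 8.21 and 8.14 without, a difference of -0.34 ± 0.08 (SE, adjusted p of limma 0.194). The groups of Angpt2 did not overlap, and those of Angpt1 did. Of 8 further ligands, Angpt2 included, 6 were higher and 2 lower, with a median of 0.06 (0.00 without FGF21 replicate 2 and 0.13 without FGF21 replicate 1). Pgf, a Flt1 ligand, was at 0.13 ± 0.07 and Vegfd, a ligand of Flt4, at 0.19 ± 0.08. Angpt4, the other lower gene, was at -0.22 ± 0.08. It lay below the median gene in every array, and its groups were 0.000958 apart. Among 10 genes of the TIE axis, Foxo1, a factor that Tek signalling holds out of the nucleus, differed by -0.24 ± 0.07, and Tnip2, an adaptor that binds Tek, by -0.18 ± 0.08. Ptprb, the endothelial phosphatase that acts on Tek and Kdr, was higher, at 8.62, 8.64 and 8.64 against 8.44, 8.47 and 8.51, by 0.17 ± 0.06, and Klf2 by 0.15 ± 0.06. Those 4 had no overlap, as was the case for 17.1% of all genes, and the list median was 0.02.

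Transcription factors and signalling genes completed the pathway. Of 15 endothelial transcription factors 12 were lower, with a median of -0.05, where 52.2% of all genes were lower. The count of 12 was 8 without control replicate 1. With each array centred on its median it was also 8, with a median of -0.01. Erg, the ETS factor of endothelial identity, was at 6.57, 6.74 and 6.76 with FGF21 and 7.15, 7.04 and 6.93 without, a difference of -0.35 ± 0.08 (SE) without overlap, and Etv2 was at -0.24 ± 0.08. Etv2 lay below the median gene in every array. Of 17 signalling genes downstream of the receptors 13 were higher, with a median of 0.04. Prkca, a protein kinase C, was at 0.27 ± 0.07 and Map2k1, the kinase that activates ERK, at 0.23 ± 0.06, and both are made by many cell types. Of 13 neuropilin, plexin and semaphorin genes 7 were higher and the median was 0.00. Nrp2, the partner of Flt4, differed by 0.00 ± 0.07, Plxnd1, an endothelial semaphorin receptor, by -0.27 ± 0.12 (-0.14 without control replicate 1) and Sema3d by 0.32 ± 0.08. The 16 HIF targets measured beside Vegfa had a median of -0.03, with 5 higher and 11 lower. Higd1a, at 0.18 ± 0.07, was the only one with an unadjusted p under 0.05 (Ddit4 joined it with the replicate number as a block), and Egln3, a HIF hydroxylase gene, was at -0.11 ± 0.07 (-0.05 without control replicate 1). The share of all genes at an unadjusted p under 0.05 was 11.7%. With each array centred on its median, the medians turned to 0.01 for HIF targets, 0.03 for VEGF response genes, 0.03 for lymphatic markers and 0.02 for cardiomyocyte markers, and with quantile normalization applied again that of the TIE axis turned to -0.00. In the reported fit, no gene of these lists passed limma adjusted over all genes.

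**Figure D4:**
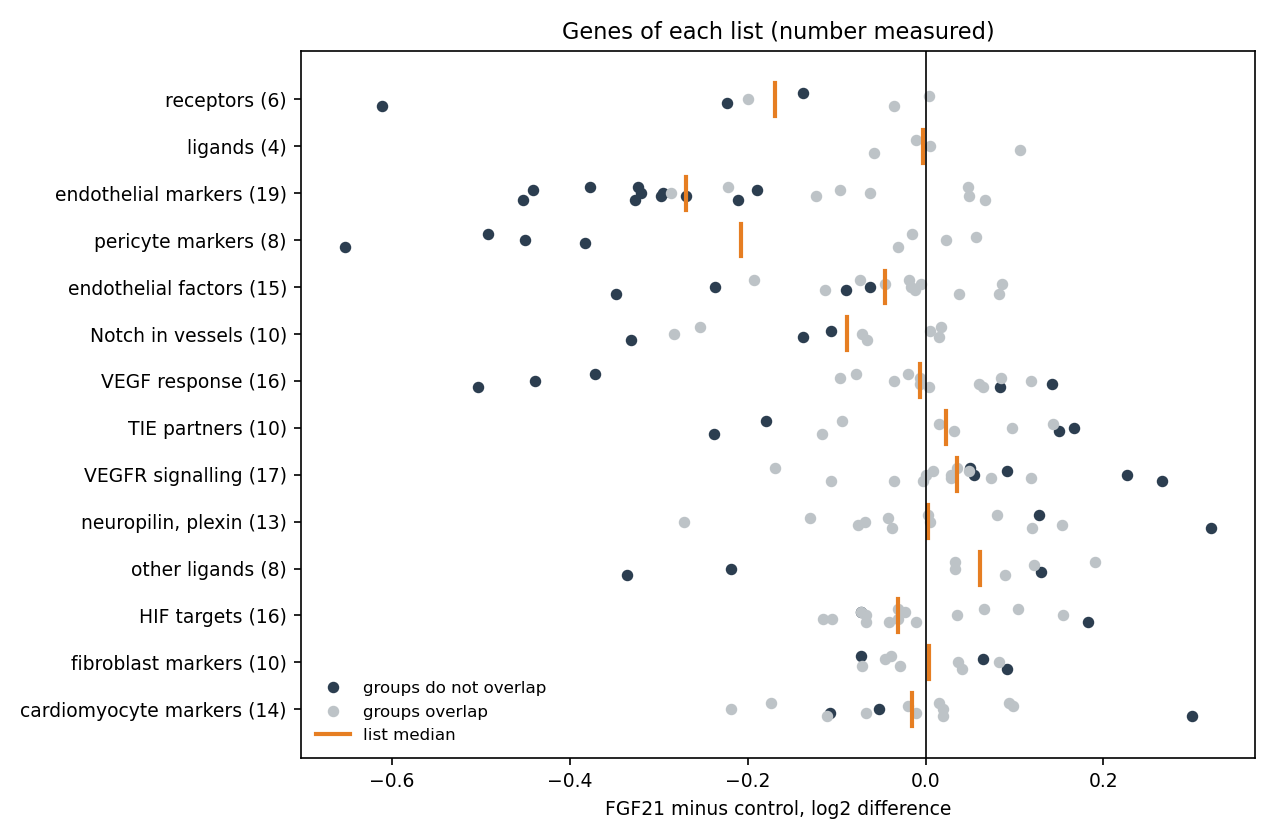
Log2 difference, FGF21 minus control, for each measured gene of the receptors, the ligands and the lists named on the axis, with the number of genes in brackets; dark points have groups that do not overlap and orange bars are list medians. Lymphatic, smooth muscle, leukocyte, epicardial and red cell markers are not drawn. The endothelial markers, at a median of -0.27, and the receptors, at -0.17, lie left of 0, and the ligands, at -0.00, and HIF targets, at -0.03, lie near 0.

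By likeness over the 6 arrays, the genes closest to Kdr among those above the median level were Rasgrp3 (Pearson r of 0.998), Bsg (0.997), Cep85 (0.993), Fam174b (0.993) and Foxo1 (0.987). Their differences with FGF21 were -0.22, -0.10, -0.13, -0.32 and -0.24. The genes closest to Vegfa were Mir1970 (0.992), Ltbp2 (0.986), Morf4l1-ps1 (0.983), Pitpnc1 (0.980) and Usp2 (0.979). These are the highest of many correlations over 6 points that share arrays and groups, and are given as a description.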

How the data were processed

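The values analysed are the authors' deposited log2 expression values of 6 arrays of total RNA, made with robust multi-array average (RMA), the affy package and R 3.2.2, per the submitters' processing notes. RMA equalises the arrays and shrinks differences in weakly expressed genes. The sources used here do not give the probe annotation file or the genome build. The table has 41345 rows; 23521 rows had 1 gene symbol, 1814 several and 16010 were not in the naming table, and only the first kind was used. The platform annotation gave the names, and all 10 members kept theirs in RefSeq. For 1082 genes with several rows the brightest was taken, leaving 22180 genes. Groups and replicate numbers came from the sample titles.

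FGF21 minus control was fitted with limma 3.58.1 (R 4.3.3, no covariate, two-sided), adjusted over all 22180 genes at a threshold of 0.05; intervals are at 95%. The SE, interval and p of limma use a variance for each gene that is drawn toward a value shared by all genes. The ordinary equal-variance statistic uses the variance of the gene alone. Differences within arrays were tested by exact permutation over the 6 arrays. Named genes were all members, up to 4 genes of smallest p per list, 8 fixed names (Pgf, Angpt2, Nrp2, Vegfd, Ptprb, Erg, Cdh5 and Pecam1) and the 5 most like Kdr and Vegfa; Pdgfrb, Cspg4 and Notch3 were chosen after their values were seen. The members and lists were chosen with earlier results of these data known. Alternatives were a replicate block, leaving out each array, other scalings, priors and filters. The procedure was run on simulated data of this comparison with 22180 genes. There, 67% of 100 genes changed by 0.5 on the log2 scale were recovered, and 99% of 100 changed by 1. In that run 174 genes were called, of which 8 were false. Whether these shares hold for the measured arrays was not tested. The number of arrays limits the precision.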

Additional observations from a re-analysis of the deposited data

How the results depend on the processing

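None of the 10 genes passed limma adjusted over all genes in any of 15 alternatives, of which the filter on dim genes left out Angpt1. In each, Kdr, Nrp1, Flt4, Flt1 and Vegfa stayed lower and Angpt1, where tested, higher. Leaving out 1 array at a time, Kdr ran from -0.77 to -0.41, Nrp1 from -0.28 to -0.14, Flt1 from -0.27 to -0.10 and Flt4 from -0.17 to -0.10. Genes near 0 changed sign: Tek ran from -0.0597 to 0.0569, Tie1 from -0.0723 to 0.0121, Vegfb from -0.0218 to 0.0287 and Vegfc from -0.0817 to 0.0435. With quantile normalization applied again Tek was at -0.0214 and Vegfb at -0.0462, with arrays centred on their medians Tie1 was at 7.89e-05 and Vegfc at 0.0258, and with array weights Vegfb was at -0.00377. Nrp2 ran from -0.0530 to 0.0385 with an array left out and was at -0.0649 with quantile normalization applied again.

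Members at an unadjusted p under 0.05 numbered 1 to 3 with an array left out, instead of 2, 4 with quantile normalization applied again (Flt1, Flt4, Kdr and Nrp1) and 0 with the ordinary statistic. Over all genes, the count at an adjusted p under 0.05 was 0 to 2 with an array left out, 5 with quantile normalization applied again, 12 with median centring, 16 with a trend and robust prior, 2 with array weights or with the mean of a gene's rows, and 58 when genes under the median level were dropped. At an unadjusted p it was 1710 to 3028 with an array left out and 1700 with dim genes left out, and lower genes made up 43.7%, or 20.1% with median centring and 24.8% with dim genes left out. The cause was not tested.

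Against the endothelial marker mean, leaving out arrays moved Kdr between -0.52 and -0.23, Tek between 0.13 and 0.30, Flt4 between 0.01 and 0.12, Flt1 between -0.0137 and 0.0738 and Nrp1 between -0.0833 and 0.0386. Flt1 was at -0.0251 with quantile normalization applied again, and Nrp1 at 0.0168 against the median of the markers. No receptor and ligand pair changed sign, but Tek and Angpt1 came to -0.0069 with the mean of a gene's rows.

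Whether replicate numbers pair the arrays is not clear: the deviations of arrays with the same number had correlations of 0.103, 0.158 and 0.00653. Arrays with different numbers had correlations from -0.160 to 0.0416. The values 0.103 and 0.158 lie above that range and 0.00653 lies within it. With a replicate block 0 genes passed at an adjusted p and 2902 at an unadjusted p under 0.05, the members at an unadjusted p stayed Kdr and Nrp1, and Kdr had a limma adjusted p of 0.216. At an unadjusted p the block moved lower Notch genes from 2 to 3, higher HIF targets from 1 to 2 and higher further ligands from 1 to 0. Alternatives for the lists and the pairs Kdr with Tek and Tie1 were chosen after seeing the data.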
